A study of Rattus norvegicus with 24 samples.

Results

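Gene expression in thoracic propriospinal (TPS) neurons was compared directly between rats killed 3 days and rats killed 1 week after complete transection of the spinal cord. The comparison took the 4 arrays of the 3-day group and the 4 arrays of the 1-week group, 8 of the 24 arrays of the series, and no uninjured control entered it. Each array held the amplified RNA of 1 female Long Evans rat of 77 ± 10 days of age. In all 8 animals the neurons had been labelled with the tracer Fluoro-Gold, injected into the upper lumbosacral enlargement a week before a T9 transection, and were then cut one by one by laser from the intermediate gray matter above the injury. Both groups therefore carried the tracer, the laminectomies, the anesthesia and the cut, and the longer time after injury went with a longer time after labelling, so these times cannot be told apart. The other 16 arrays (2 transected rats of 2 weeks, 2 of 1 month, and 12 uninjured, labelled rats in 3 groups of 4 that the labels call controls of 4 days, 2 weeks and 1 month) are used only to show where the levels lie. The labels' times for the controls are used here as names: in the study's design the 4-day controls were killed as long after labelling as the 3-day animals, and the later controls as long after labelling as the transected animals of 2 weeks and 1 month.

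Propriospinal neurons connect the segments of the spinal cord with one another, and their descending axons run to the lumbar circuits for the hindlimbs. Cutting an axon sets off a program in the cell body in which stress proteins and transcription factors such as Atf3 are made. Around an injured neuron, microglia (the resident macrophages of the central nervous system) activate, divide and express complement and Fc receptors, and astrocytes become reactive, with more intermediate filament protein and less of their transport proteins. Mature neurons do not divide, and mitotic genes in injured cord are known from dividing microglia, other glia and infiltrating cells. A laser-cut neuron can carry fragments of its neighbours, and from bulk RNA fewer cells of a type and less RNA per cell cannot be told apart.

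Of 23240 probes above the lowest 15 percent of intensity, 264 (1.14%) differed between 3 days and 1 week post injury (p.i.) at an adjusted p under 0.05 in limma. Of these, 226 (0.972%) were higher at 3 days and 38 (0.164%) were lower. Among the 226 the median log2 difference was 0.84, 89 were at least 1 and 14 at least 2, whereas among the 38 the median was -0.65 and 3 reached 1 in size. The median of all probes was -0.01. These calls are not independent. Of the 226, 63 are unnamed probes in 1 run of 150 that follows Meg3, an imprinted noncoding RNA gene, in the order of probe identifiers. Their differences lay between 0.52 and 1.25, and 45 of the 63 were within 0.01 of another of them on all 8 arrays. Outside the run 201 probes were called, 163 higher at 3 days with a median of 1.06 and 38 lower. Meg3 was itself higher at 3 days (0.68 ± 0.13, adjusted p = 0.0455). In all 264 the 4 animals of one group lay on one side of the 4 of the other, which held for 6.7% of all probes tested (3.74% higher and 2.96% lower at 3 days). With 1 probe for each named gene, 154 of 12994 genes (1.19%) were called, 124 (0.954%) higher at 3 days and 30 (0.231%) lower. The groups did not overlap in 7.45% of the 12994 genes (3.91% higher and 3.54% lower), and 101 of the 264 probes, the 63 among them, had no single gene name. In 10 of the 154 genes the mean of 1 group lay under the limit of the filter (a log2 intensity of 5.07), so they passed it through the group where they were higher.

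The neurons themselves were well represented in both groups. The synaptic protein gene Snap25 had a mean log2 intensity of 12.24 ± 0.05 (SD, n = 4) at 3 days and 12.27 ± 0.02 at 1 week, the neuronal surface glycoprotein gene Thy1 12.23 ± 0.04 and 12.28 ± 0.06, and the neurofilament gene Nefm 12.07 ± 0.02 and 12.07 ± 0.06. These 3 were the neuronal markers of highest intensity. None of 19 neuronal markers passed the test, but 16 differences were below 0. They ran from -0.55 to 0.30, with a median of -0.11, whereas over all genes tested 45.6% were above 0 and the median was -0.02. Markers of other cells were measured as well. Median levels over both groups were 9.67 for 22 astrocyte genes, 9.57 for 19 oligodendrocyte genes, 7.48 for 18 genes of homeostatic microglia and 5.80 for 22 neutrophil and lymphocyte genes, and each median rests on its own probes, so they give no share of cells.

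One animal stood apart. On the first principal component of the 8 arrays, which held 29.4% of the variance, 3-day animals 1, 2 and 4 lay between 21.6 and 23.1 and the 4 animals of 1 week between -19.9 and -14.4, while 3-day animal 3 lay at 1.30. Its mean correlation with the other 3-day arrays was 0.977 and with the 1-week arrays also 0.977. Without it 530 probes (452 higher and 78 lower) were called, 249 of the 264 among them. The counts of the lists that moved most are therefore given with it and without it.

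**Figure D1:**
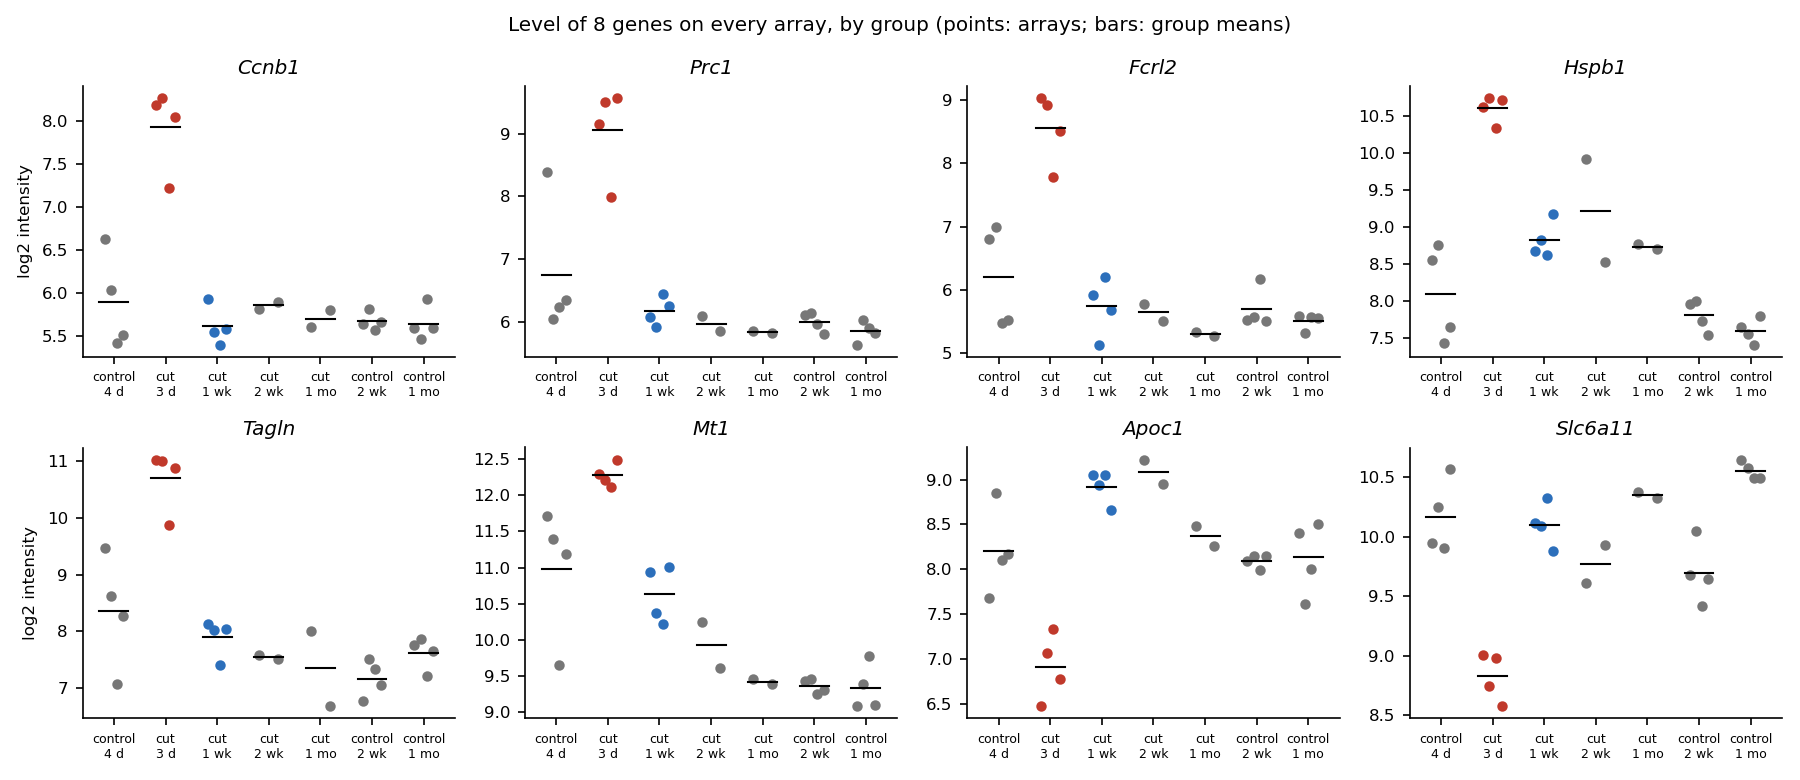
Log2 intensity (vertical axis, 1 panel for each gene, axes not starting at 0) of 8 genes on all 24 arrays, by group along the horizontal axis ("cut": transected; points: animals; bars: group means; red: 3 days; blue: 1 week; grey: groups outside the comparison). The 6 genes that were higher at 3 days than at 1 week (Ccnb1, Prc1, Fcrl2, Hspb1, Tagln and Mt1) and the 2 that were lower (Apoc1 and Slc6a11) show no overlap between the red and the blue points.

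Genes of cell division were among the largest increases. Of 71 genes of mitosis, taken from a list of cyclins and kinases and a list of kinetochore, spindle and cytokinesis genes, 59 had a probe and 58 passed the filter. Of the 58, 20 were higher at 3 days and none lower, with a median difference of 0.81 and 55 of 58 above 0. Over all genes tested 0.954% were higher, 45.6% of differences were above 0 and the median was -0.02. These values are the background for the other lists as well. With 1 animal other than 3-day animal 3 left out, 0.169% to 0.462% of all genes were higher. In 5 of the 20 (Bub1b, Ect2, Kif20a, Kif2c and Nuf2) the 1-week mean lay under the limit of the filter, so these passed only through the 3-day arrays, and in 15 both means were above it. Members not called were not checked for this. The median, the count above 0 and the count without 3-day animal 3 may therefore include such genes. Without 3-day animal 3, 38 of the 58 were higher, where 2.2% of all genes were (the share to hold against the other counts of higher genes without this animal), and the median was 0.99. With any other 1 animal left out between 4 (without 3-day animal 2) and 10 were higher, the median staying between 0.75 and 0.83.

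Ccnb1, the cyclin whose kinase complex drives entry into mitosis, read 8.19, 8.26, 7.22 and 8.04 in 3-day animals 1 to 4. In 1-week animals 1, 2, 4 and 5 it read 5.93, 5.55, 5.40 and 5.58. The difference was 2.32 ± 0.23 (SE, adjusted p = 0.00642), 4.98-fold on the intensity scale. With 16 taken off each value before the log, since the lowest deposited value is 17, it was 2.79. Plk1, the Polo kinase of spindle assembly, read 7.76, 7.85, 7.11 and 7.85 against 5.38, 5.76, 5.72 and 5.31, a difference of 2.10 ± 0.18 (adjusted p = 0.00476). Prc1, which bundles the microtubules of the central spindle, had the largest change of the mitotic genes. It read 9.16, 9.51, 7.99 and 9.57 at 3 days and 6.08, 5.92, 6.45 and 6.25 at 1 week, a difference of 2.88 ± 0.32 (adjusted p = 0.00866). In each of the 3 genes 3-day animal 3 was the lowest of its group and still above every animal of 1 week.

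Other called members also had differences above 1. Top2a, the topoisomerase that untangles chromosomes, was 2.65 ± 0.31 higher, the mitotic kinase gene Pbk 2.64 ± 0.39, Tpx2, which activates Aurora A on the spindle, 2.25 ± 0.29, and Ccnb2 1.88 ± 0.27. Of the called genes, 3 encode parts of the Ndc80 complex, which ties kinetochores to microtubules (Nuf2 by 2.04, from a 1-week mean of 4.97 that lies under the limit of the filter, Spc25 by 1.99 and Ndc80 by 1.64). Cdk1, the partner of the B cyclins, had a difference of 2.15 and did not pass the test. Genes outside the lists that are active in dividing cells were also called. Cdkn3, a phosphatase of cyclin-dependent kinases, was 2.40 ± 0.32 higher and the securin gene Pttg1 1.90 ± 0.36 higher, and Kpna2, a nuclear import adaptor, 1.61 ± 0.25.

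Rrm2, the small subunit of the enzyme that makes deoxynucleotides, showed the largest difference of all probes tested. It read 10.47, 10.53, 9.40 and 10.70 at 3 days and 6.83, 7.13, 7.10 and 7.44 at 1 week. The difference was 3.15 ± 0.27 (adjusted p = 0.00468), or 8.87-fold, and a separate probe of the gene gave 2.98 ± 0.34. Few other genes of DNA synthesis were called. Of 35 replication and licensing genes, 2 were higher (Rrm2 and Gins1, 1.30 ± 0.24), the median was 0.11, and Mcm2, Mcm7 and Cdc6, parts of the machinery that loads and forms the replicative helicase, had differences of 0.03, 0.07 and -0.10 that did not pass the test. Without 3-day animal 3, 4 of the 35 were higher.

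The mean log2 intensity over the 58 mitotic genes ranged from 6.36 (animal 3) to 7.11 at 3 days and from 5.88 to 5.90 at 1 week. The transected animals of 2 weeks and 1 month lay between 5.75 and 5.88, and the 2-week and 1-month controls between 5.76 and 5.91. The 4-day controls had a median of 5.91, but 1 of them, animal 1, read 6.49, above 3-day animal 3.

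Because cyclin and spindle genes share promoter elements, the bases in front of their starts were read from RefSeq (build GRCr8). Many mitotic genes are held down outside of mitosis through the CHR element, with the core TTTGAA, and driven through CCAAT boxes bound by NF-Y. The 150 bases before the start are shown for 7 called genes, on the strand of the gene, with these letters in capitals in either orientation (TTTGAA or TTCAAA, and CCAAT or ATTGG). The first 4 hold both, the next 2 hold CCAAT alone, and the last holds neither in this stretch.
Ccnb2 (chr8:79981659-79981808, minus strand): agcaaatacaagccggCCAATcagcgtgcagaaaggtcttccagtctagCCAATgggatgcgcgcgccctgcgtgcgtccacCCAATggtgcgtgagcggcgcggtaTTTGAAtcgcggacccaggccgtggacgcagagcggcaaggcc
Prc1 (chr1:143659331-143659480, plus strand): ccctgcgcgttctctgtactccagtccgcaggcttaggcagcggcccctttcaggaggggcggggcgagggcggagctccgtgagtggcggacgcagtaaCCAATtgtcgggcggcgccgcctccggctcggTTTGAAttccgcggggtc
Top2a (chr10:84473094-84473243, minus strand): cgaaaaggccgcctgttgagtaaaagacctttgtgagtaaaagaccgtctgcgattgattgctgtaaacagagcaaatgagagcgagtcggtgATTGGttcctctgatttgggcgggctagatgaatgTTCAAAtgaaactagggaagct
Spc25 (chr3:74396719-74396868, minus strand): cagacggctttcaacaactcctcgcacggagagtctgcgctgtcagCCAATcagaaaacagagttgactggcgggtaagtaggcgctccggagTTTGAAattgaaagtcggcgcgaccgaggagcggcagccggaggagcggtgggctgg
Ccnb1 (chr2:33655226-33655375, minus strand): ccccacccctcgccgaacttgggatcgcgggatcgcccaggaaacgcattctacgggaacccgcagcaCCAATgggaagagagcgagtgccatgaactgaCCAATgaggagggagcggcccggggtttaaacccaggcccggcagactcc
Plk1 (chr1:186147508-186147657, plus strand): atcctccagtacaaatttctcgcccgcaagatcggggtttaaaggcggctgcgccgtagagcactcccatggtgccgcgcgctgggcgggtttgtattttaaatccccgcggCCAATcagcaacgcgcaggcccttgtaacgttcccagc
Nuf2 (chr13:84255599-84255748, minus strand): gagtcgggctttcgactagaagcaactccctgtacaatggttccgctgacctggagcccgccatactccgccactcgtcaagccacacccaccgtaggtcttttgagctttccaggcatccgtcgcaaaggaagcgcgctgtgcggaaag
In the 250 bases before the start, TTTGAA stood in 6 of the 16 called mitotic genes with a promoter in the table (37.5%), in 16 of 31 mitotic genes that were not called (51.6%) and in 12.4% of all genes tested. CCAAT stood in 56.2% of the called and 74.2% of the other mitotic genes, and in 35.6% of all genes tested. Both together stood in 37.5%, 45.2% and 4.75%. The letters were thus more frequent in mitotic genes than in all genes, and not more frequent in the called ones than in those not called. No test was made, and a match does not show that a factor binds.

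**Figure D2:**
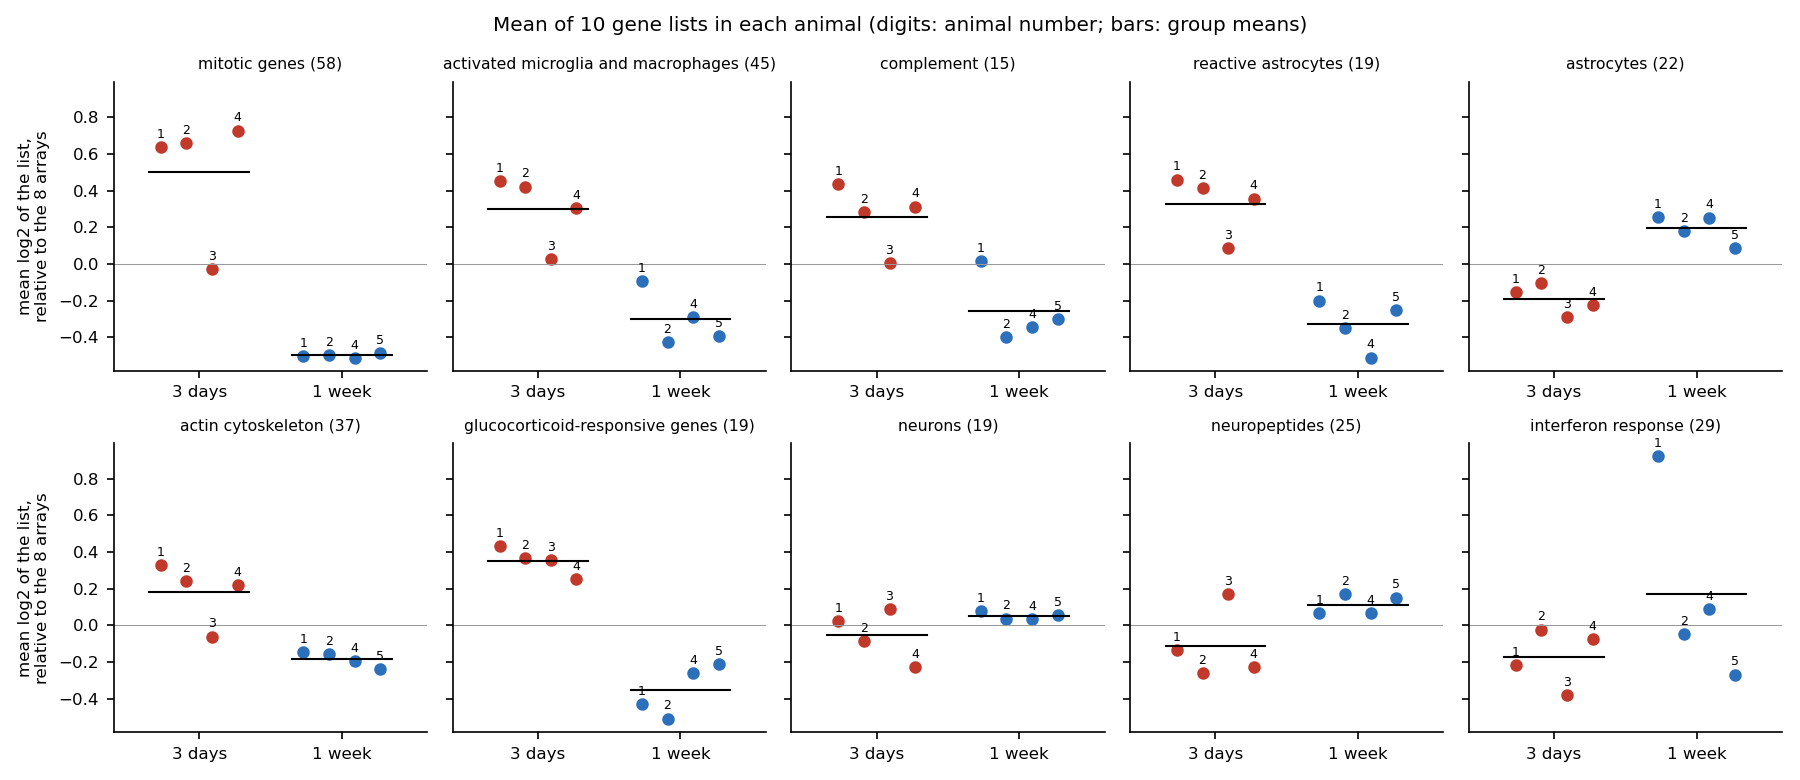
Mean log2 intensity of 10 gene lists in each of the 8 animals, each gene taken relative to its mean over the 8 arrays (vertical axis, log2 units; number of genes in parentheses; digits: animal numbers; red: 3 days; blue: 1 week; bars: group means). Animal 3 of the 3-day group lies at -0.03 for the mitotic genes against 0.64 to 0.73 in the others of its group. It lies amid them for glucocorticoid-responsive genes (0.36), a list added after the data were seen. For the interferon genes 1-week animal 1 lies alone at 0.92.

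Genes of microglia and macrophages were a further group of increases, and whether they and the mitotic genes came from the same cells was not tested. Of 45 genes of activated microglia and macrophages 10 were higher at 3 days and none lower, where 0.954% and 0.231% of all genes were. Of the 45, 42 differences were above 0, and the median was 0.49. Without 3-day animal 3, 15 were higher, and with any other animal left out at least 3 were. Lgals3, the carbohydrate-binding protein of phagocytes, read 10.06, 9.83, 9.23 and 9.62 at 3 days and 8.18, 7.26, 7.48 and 8.02 at 1 week, a difference of 1.95 ± 0.24 (adjusted p = 0.0112). Apobec1, a cytidine deaminase that edits RNA, read 10.13, 9.88, 9.28 and 9.83 against 8.28, 8.10, 7.59 and 7.94, a difference of 1.80 ± 0.20 (adjusted p = 0.00866). The groups were well apart in both genes, although 3-day animal 3 was again the lowest of its group. Ms4a6bl1, of the membrane-spanning family made by macrophages, was 1.91 ± 0.21 higher and the lectin receptor gene Clec4a3 1.28 ± 0.14 higher. The phagosome protein gene Cd68 was 1.10 ± 0.17 higher, the only one of 26 lysosomal genes that passed, in a list with a median of 0.21.

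Not every macrophage marker passed the test. Ctss, a lysosomal protease at a high level in both groups, read 11.20 ± 0.20 and 11.07 ± 0.14 (difference 0.13, adjusted p = 0.765), and Tyrobp, the signaling adaptor of microglial receptors, 10.10 ± 0.18 and 9.73 ± 0.18 (adjusted p = 0.274). Itgam, the CR3 integrin chain, had a difference of 1.32 and Adgre1, the F4/80 receptor, 1.29, and neither passed the test.

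Among 18 genes that mark homeostatic microglia, 2 were higher, Fcrl2 and Olfml3, and the median was 0.27. Fcrl2, a scavenger-like receptor of the Fc receptor family, read 9.03, 8.92, 7.79 and 8.51 at 3 days and 5.93, 5.14, 6.21 and 5.69 at 1 week. This difference of 2.82 ± 0.30 (adjusted p = 0.00827), 7.05-fold, was the fourth in size among probes with 1 gene name. Olfml3, a secreted matrix protein, read 8.09, 8.16, 8.35 and 8.13 against 7.08, 6.82, 6.69 and 7.21, and here 3-day animal 3 was the highest. The receptors that define resting microglia did not pass the test. P2ry12 had a difference of 0.41 ± 0.21 (adjusted p = 0.527), Cx3cr1 0.33 ± 0.18 (adjusted p = 0.567) and Tmem119 0.15 ± 0.16 (adjusted p = 0.807).

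Some genes of complement and of Fc receptors, the proteins by which phagocytes find tagged material, were higher as well. Of 15 complement genes 4 were higher, where 0.954% of all genes were, with a median of 0.48 (5 without 3-day animal 3, and at least 1 with any animal left out). Cfp, or properdin, which stabilizes the alternative pathway convertase, read 8.36, 8.30, 7.90 and 8.50 at 3 days against 6.69, 6.73, 6.80 and 6.84 at 1 week. The 4 animals of 1 week differed by little, and the difference was 1.50 ± 0.12 (adjusted p = 0.00428). C1qc and C1qb, chains of the first complement component, were 1.00 ± 0.13 and 0.84 ± 0.16 higher, and Masp1, a lectin pathway protease, 0.72 ± 0.12. The third chain, C1qa, had a difference of 0.62 and C3 of 0.48, and neither passed. The complement genes below 0 were Serping1 (-0.45), Clu (-0.07) and C1r (-0.01), and none passed. Of 19 Fc receptor and ITAM signaling genes all were above 0, with a median of 0.49, and 2 passed, 6 without 3-day animal 3. These were Hcst, the DAP10 adaptor, by 1.46 ± 0.15 and the inhibitory Fc receptor gene Fcgr2b by 1.33 ± 0.18. The letters GGAAGT, a core bound by PU.1 and other ETS factors, stood in front of 5 of 13 called microglial, complement and Fc receptor genes (38.5%) and of 22.3% of all genes tested. They also stood in front of 5 of 16 called mitotic genes (31.2%) and of 20.4% of all called genes that were higher at 3 days. Microglial genes that were not called were not read for these letters, and no test was made.

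Among the signals that call cells in, of 36 chemokine and cytokine genes 1, Cxcl14, was higher at 3 days (0.87 ± 0.13, adjusted p = 0.0255), with a median of 0.11, and 4 were without 3-day animal 3. Over all genes 0.954% were higher, and 2.2% without that animal. Ccl2, the monocyte chemokine, read 8.73, 7.70, 9.38 and 7.88 at 3 days and 6.75, 6.72, 6.91 and 6.97 at 1 week. The groups did not overlap, but the 3-day animals were widely spread, and the difference of 1.59 ± 0.33 had an adjusted p of 0.0649, which ranged from 0.00341 with all 24 arrays in the fit to 0.261 in the methods' t-test over the alternatives and was 0.0356 without 3-day animal 3. None of 22 neutrophil and lymphocyte genes passed the test, with a median of -0.01. S100a9, a calcium-binding protein of neutrophils, read 8.04 to 8.81 at 3 days but between 5.26 and 9.57 at 1 week, where animal 5 was the highest of all 8.

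Interferon-responsive genes had differences in the other direction that came mainly from 1 animal. None of 29 passed the test, 23 were below 0 and the median was -0.24. Mx1, an antiviral GTPase, read 8.78 in 1-week animal 1 against 6.22 to 6.55 in the other 1-week animals and 4.93 to 6.38 at 3 days. Isg15, the ubiquitin-like interferon product, read 10.22, 8.92, 8.89 and 8.05 at 1 week and 7.49 to 8.16 at 3 days, a difference of -1.22 ± 0.39 (adjusted p = 0.26). Without 1-week animal 1 the median of the 29 was -0.05 and 12 were above 0. Uninjured controls of 4 days were as widely spread, with list means from 6.18 to 7.73. Of 23 antigen presentation genes 1 was higher at 3 days, where 0.954% of all genes were. It was RT1-DMb, which loads class II molecules (1.02 ± 0.19).

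**Figure D3:**
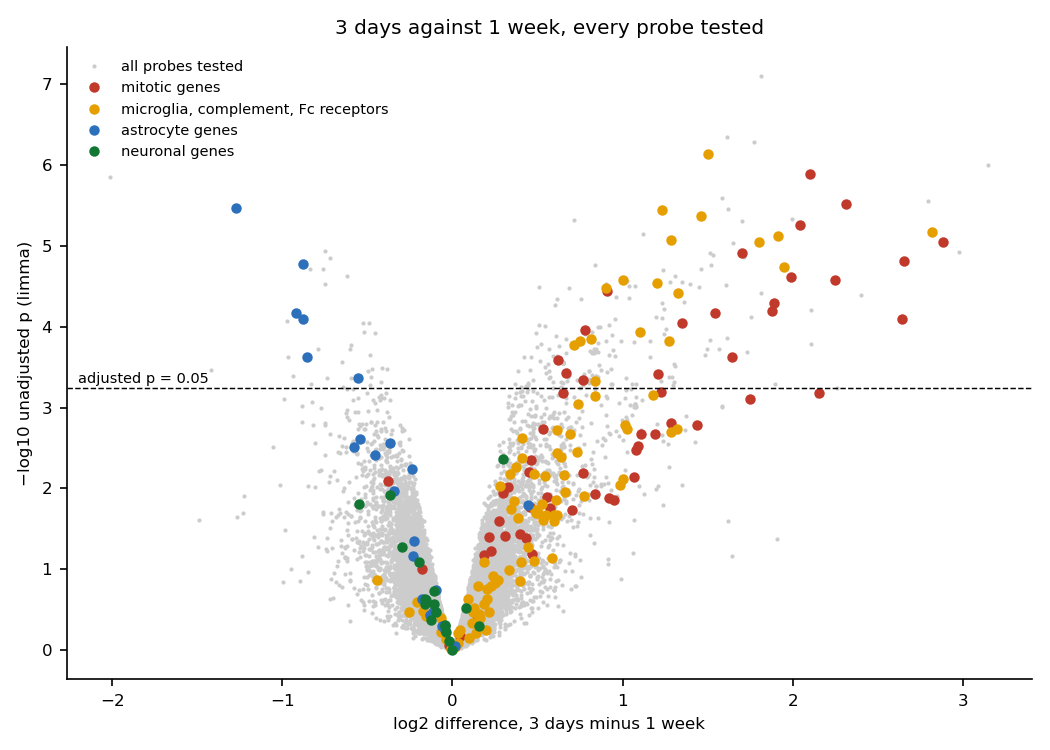
Log2 difference, 3 days minus 1 week (horizontal axis), against -log10 of the unadjusted limma p (vertical axis) for the 23240 probes tested, with 4 groups of genes in color. The dashed line marks an adjusted p of 0.05. Mitotic and microglial genes above it all lie to the right and astrocyte genes above it all lie to the left, while no neuronal gene lies above it.

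The reactive astrocyte list and the general astrocyte list, which share Gfap, had calls in opposite directions. Of 19 genes of reactive astrocytes 7 were higher at 3 days, where 0.954% of all genes were, with a median of 0.44 (9 without 3-day animal 3, and at least 3 with any animal left out). None was called lower, but 3 were below 0, the lowest at -1.23. In 1 member all 3-day animals lay below all 1-week animals. Vim, the intermediate filament of reactive astrocytes and of many other cells, read 11.31, 11.22, 10.44 and 11.18 against 8.80, 9.34, 8.86 and 9.16, a difference of 2.00 ± 0.20 (adjusted p = 0.0068). Every 3-day animal was more than 1 above every animal of 1 week. Timp1, a metalloproteinase inhibitor, was 2.11 ± 0.34 higher, and Lcn2, a secreted iron-siderophore binder, 2.11 ± 0.30. Serpina3n, a protease inhibitor, was 1.61 ± 0.13 higher, and S100a10 and Cp (ceruloplasmin, which carries copper) 0.49 and 1.36. Gfap, the intermediate filament that defines astrocytes, read 11.37 ± 0.28 and 10.93 ± 0.18 and did not pass (0.44 ± 0.15, adjusted p = 0.286).

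The general astrocyte list was written with earlier results of these data known. On it, Slc6a11, Rlbp1, Car14, Slc7a10 and Kcnj10 are among the study's most decreased genes, so its common direction is not independent evidence. Of 22 astrocyte marker genes, Gfap included, 6 were lower at 3 days and none higher, where 0.231% and 0.954% of all genes were. Of the 22, 20 were below 0 and the median was -0.29. Without 3-day animal 3, 7 were lower and 1 was higher, where 0.5% and 2.2% of all genes were. With any other animal left out between 2 and 5 were lower. Slc6a11, the GABA transporter of astrocytes, read 9.01, 8.75, 8.98 and 8.58 at 3 days and 10.11, 10.09, 10.32 and 9.88 at 1 week. The difference was -1.27 ± 0.13 (adjusted p = 0.00642), or 2.42-fold higher at 1 week. The differences were -0.92 for Rlbp1, a retinoid-binding protein, -0.88 for Car14, a membrane carbonic anhydrase, -0.88 for Bcan, the proteoglycan brevican, -0.86 for Dao, which breaks down D-serine, and -0.55 for Slc7a10, a D-serine transporter. Other markers did not pass the test. Aldoc, a glycolytic enzyme of astrocytes, read 11.66 ± 0.06 and 11.76 ± 0.06 (adjusted p = 0.666) and Ndrg2 11.31 ± 0.15 and 11.37 ± 0.05 (adjusted p = 0.868). Unlike in the mitotic and microglial lists, 3-day animal 3 was not intermediate here, with a list mean of -0.29 against -0.22 to -0.11 in the other 3-day animals and 0.08 to 0.26 at 1 week.

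Some apolipoproteins were lower at 3 days as well. Apoc1, a small apolipoprotein of lipid particles, had the largest decrease of all probes. It read 6.48, 7.07, 7.33 and 6.77 at 3 days and 9.05, 8.93, 9.05 and 8.66 at 1 week, a difference of -2.01 ± 0.18 (adjusted p = 0.00476), or 4.03-fold higher at 1 week. Its mean was 8.20 in 4-day controls and 9.09 at 2 weeks. Apoe, the main lipid carrier made by astrocytes and microglia, read 10.90, 10.82, 10.57 and 10.74 against 11.62, 11.52, 11.58 and 11.37, a difference of -0.76 ± 0.09. Both were the called members of 12 lipid transport genes, a list added after the data were seen. At 1 week both means lay above all 12 uninjured controls, whereas at 3 days Apoc1 lay below the 4-day control mean in all 4 animals.

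Other genes with large decreases have varied roles. Nrep, a gene named for its link to neuronal regeneration, read 7.53, 7.40, 6.50 and 7.28 at 3 days against 8.86, 8.85, 8.62 and 8.05, a difference of -1.42 ± 0.25 (adjusted p = 0.0392). Itih3, a hyaluronan-binding protein, was at -0.97 ± 0.14, Tst, a mitochondrial sulfurtransferase, at -0.83 ± 0.10, the growth factor-like Egfl6 at -0.75 ± 0.10, the glutathione transferase gene Gsta1 at -0.75 ± 0.09 and the phospholipase gene Gpld1 at -0.73 ± 0.14. Agt, or angiotensinogen, which astrocytes make in the central nervous system, was at -0.72 ± 0.08. Camk4, a calcium-dependent kinase of neurons, was at -0.62 ± 0.08.

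Some genes of the neuron's injury response were called. Hspb1, the small heat shock protein induced in axotomized neurons and in reactive astrocytes, read 10.62, 10.73, 10.34 and 10.71 at 3 days and 8.68, 8.83, 8.62 and 9.18 at 1 week. The difference of 1.77 ± 0.14 (adjusted p = 0.004) was 3.42-fold, and its mean in 4-day controls was 8.10. Ret, the signaling receptor of the GDNF family, read 9.77, 9.58, 9.56 and 9.49 against 8.46, 8.89, 8.57 and 8.86, a difference of 0.90 ± 0.12 (adjusted p = 0.0129). Both groups were above the mean of the 4-day controls (8.14). Tubb2b, a tubulin of growing neurites, was 1.48 ± 0.25 higher, the 1 call among 27 growth cone genes. Gap43, the growth cone protein, read 11.10 ± 0.07 at 3 days and 10.95 to 11.05 at 1 week, and its difference did not pass (0.10 ± 0.07, adjusted p = 0.642).

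Atf3, the transcription factor that marks axotomized neurons, read 8.34, 8.57, 8.12 and 7.59 at 3 days and 6.64, 7.36, 6.61 and 7.14 at 1 week. The groups did not overlap, and the difference of 1.22 ± 0.24 had an adjusted p of 0.0525. Over the alternatives this p ranged from 0.016 with all 24 arrays in the fit to 0.234 in the methods' t-test. Its exact two-sided permutation p was 0.0286, the smallest that 4 against 4 animals allow. None of the 31 transcription factors of the axotomy response passed, and their median was 0.03. Without 3-day animal 3, 3 of them were lower, where 0.5% of all genes were. With all 24 arrays in the fit 3 were higher and 3 lower, where 2.07% and 0.777% of all genes were. Of 20 heat shock and chaperone genes 2 were called, the small heat shock genes Hspb1 and Cryab (0.61 ± 0.10), and the median was -0.03.

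The study's own lists, which were chosen on these samples and so are not independent evidence of direction, held 2 calls among 14 regeneration and survival genes (Hspb1 and Tspo, the mitochondrial translocator protein, 1.27 ± 0.23), 2 among 7 receptor and growth factor genes (Ret and Igf1, 0.64 ± 0.12) and none among 6 apoptosis genes. Of the 14 regeneration and survival genes 13 were above 0, with a median of 0.40. In 8 all 3-day animals were above all 1-week animals, which held for 3.91% of all genes. All 6 apoptosis genes had a difference above 0, with a median of 0.27, and the nearest to the threshold was Dap (0.91 ± 0.21, adjusted p = 0.0907). None of 35 genes of the apoptosis machinery passed, with a median of 0.06. Of 32 trophic factors, Igf1 and the binding protein gene Igfbp2 (1.51 ± 0.17) were higher, where 0.954% of all genes were. Bdnf was not called (-0.33 ± 0.10, adjusted p = 0.204).

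No gene on the lists of neuronal function was called, and their medians were below 0. Over all genes tested the median was -0.02, and 45.6% of differences were above 0. The median was -0.13 for 27 synaptic vesicle genes (21 below 0), -0.15 for 39 transmitter receptors (33), -0.09 for 31 voltage-gated channels (21) and -0.20 for 25 neuropeptide genes (22). Npy, neuropeptide Y, read 7.99, 7.23, 8.08 and 8.14 at 3 days and 8.53, 8.65, 8.56 and 8.93 at 1 week, a difference of -0.81 ± 0.20 (adjusted p = 0.121). The neuropeptide mean of 3-day animal 3 was 0.17, among the 1-week animals (0.07 to 0.17), and without that animal 3 neuropeptide genes and 2 synaptic vesicle genes were lower, where 0.5% of all genes were. In the respiratory chain 35 of 36 genes were below 0, with a median of -0.08 and none called, and ribosomal protein genes had a median of 0.07 with none of 34 called on the probe each was read on. Rps2, a gene of the small ribosomal subunit, was not called on that probe (0.40 ± 0.08, adjusted p = 0.057), but 3 of its other probes were, with differences of 0.43 to 0.44, and these probes may share signal with copies of the gene. None of 22 axon repulsion receptors or 16 cholesterol synthesis genes passed either, Ret was the 1 call among 29 growth factor and cytokine receptors, and Pdk1, which restrains pyruvate oxidation, the 1 call among 22 glycolysis genes (0.73 ± 0.14).

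**Figure D4:**
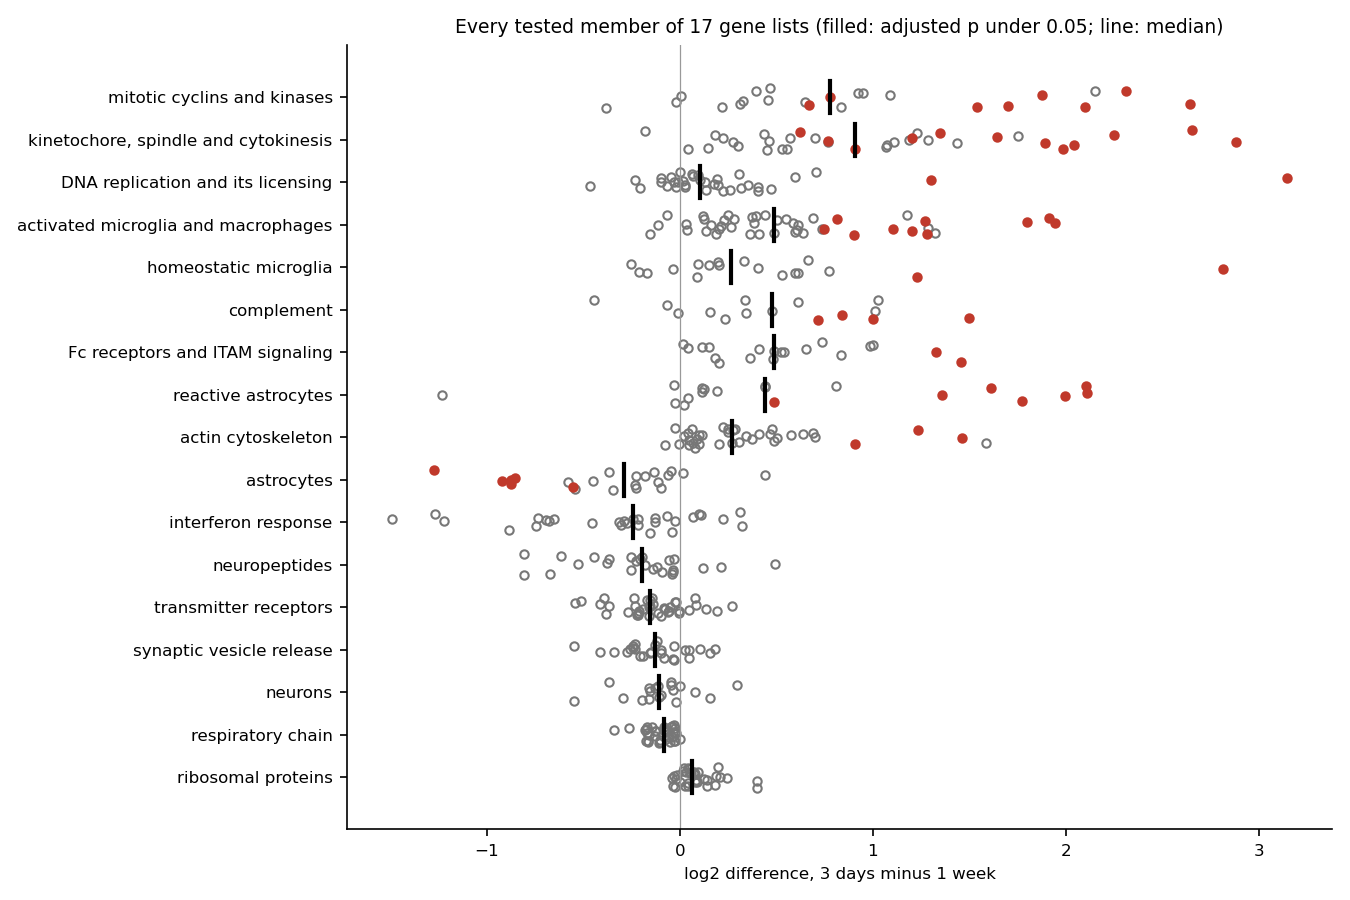
Log2 difference, 3 days minus 1 week (horizontal axis), of every tested member of 17 gene lists (rows; filled red: adjusted p under 0.05; open: not called; vertical line: median). The mitotic lists have medians of 0.78 and 0.91 and the astrocyte list of -0.29, while the lists of neuronal function lie close to 0.

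Further increases were found in single genes of the cytoskeleton, smooth muscle and matrix. Tagln, or transgelin, which binds actin in smooth muscle and stromal cells, read 11.02, 11.003, 9.88 and 10.87 at 3 days and 8.12, 8.02, 7.40 and 8.05 at 1 week, a difference of 2.80 ± 0.27 (adjusted p = 0.00642). It was the 1 call among 21 endothelial and mural genes, whose median was 0.03, and Cldn5, the tight junction protein of endothelium, read 9.85 ± 0.10 and 9.76 ± 0.06. Of 37 actin cytoskeleton genes 3 were higher, where 0.954% of all genes were, namely the crosslinker gene Flna (1.46 ± 0.18), S100a6 (1.23 ± 0.17) and calponin Cnn3 (0.91 ± 0.16), with 34 above 0 and a median of 0.27. This count was 10 without 3-day animal 3, 0 without 3-day animal 2, and 1 or 2 with any other animal left out. Of 31 fibroblast and matrix genes Timp1 and Fn1, fibronectin (1.04 ± 0.14), were higher. The matrix proteoglycan genes Ncan (1.28 ± 0.16) and Vcan (0.76 ± 0.10) were higher at 3 days, opposite to Bcan of the same family. Vcan was the 1 call among 11 genes of oligodendrocyte precursors (median 0.10), none of 19 oligodendrocyte genes passed (0.07), and none of 7 red blood cell genes did (0.33). Mgp, an inhibitor of calcification, was 1.62 ± 0.16 higher, and S100a4, a calcium-binding protein of motile cells, 1.45 ± 0.19.

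Metallothioneins and genes induced by glucocorticoids were examined after the data were seen. Mt1, a metal-binding protein induced by zinc, stress and glucocorticoids, read 12.30, 12.22, 12.12 and 12.49 at 3 days and 10.93, 10.38, 10.22 and 11.005 at 1 week. The difference was 1.65 ± 0.18 (adjusted p = 0.00866), with 1.70 for another probe of the gene. Mt2A was 1.07 ± 0.14 higher, and Mt3, the neural form, was not called (0.17 ± 0.07, adjusted p = 0.349). Probes of these near-identical genes may share signal. The 150 bases before the start of Mt1 (RefSeq, build GRCr8) are shown because they carry repeated cores of the metal response element (TGCACNC or TGCGCNC, either strand, in capitals, the first cut by the edge of the stretch).
Mt1 (chr19:10832976-10833125, minus strand): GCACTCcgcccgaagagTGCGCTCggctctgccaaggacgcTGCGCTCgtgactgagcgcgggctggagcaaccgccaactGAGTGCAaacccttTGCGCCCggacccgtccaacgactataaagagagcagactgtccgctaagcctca
The 250 bases before the start held 6 such cores in Mt1 and 4 in Mt2A, and 28.4% of all genes tested held at least 1.

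Of 19 glucocorticoid-responsive genes all were above 0, with a median of 0.71, and 7 were higher at 3 days, Mt1 and Mt2A of the metallothioneins among them. Since this list was added after the data were seen, its common direction is not independent evidence. Pdk4, a brake on pyruvate oxidation, read 8.81, 8.38, 8.98 and 8.13 against 6.87, 7.12, 7.01 and 7.17, a difference of 1.53 ± 0.18 (adjusted p = 0.0101). Gpd1, a glycerol phosphate dehydrogenase, was 1.49 ± 0.25 higher, Sult1a1, a sulfotransferase, 1.40 ± 0.18, Fam107a 1.24 ± 0.19 and the kinase gene Sgk1 1.16 ± 0.19. Fkbp5, a chaperone of the steroid receptor, read 7.76, 7.95, 8.63 and 7.42 at 3 days and 6.84, 6.72, 6.89 and 7.31 at 1 week, without overlap, and was not called (1.00 ± 0.24, adjusted p = 0.115). For this list 3-day animal 3 was one of the group, with a mean of 0.36 against 0.25 to 0.43 in the others, and in Pdk4 and Fkbp5 it was the highest.

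Across the 124 genes that were higher at 3 days, the 1-week mean lay within the range of the 12 uninjured controls in 113. It was nearer to the 4-day control mean than the 3-day mean was in 117. The 3-day level stood a median of 1.20 above the 4-day controls, and the 1-week level a median of 0.08 below them. In 88 of the 124 all 4 animals of 3 days were above all 20 other arrays. In 9 genes, Hspb1, Ret, C1qb, Fcgr2b, Cp, Clec4a1, P2ry6, Pld4 and Zfp36, the 1-week mean was still above every control. Of the 30 genes that were lower at 3 days, the 1-week mean lay within the control range in 26, and all 4 animals of 3 days were below all 20 other arrays in 15. The 3-day and 1-week animals were compared with the same controls here, these genes were chosen for the difference between them, and no test was made. The 20 other arrays include the 4 of 1 week, from which the 3-day arrays were already apart in every called gene. The same counts were not made over all genes tested.

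**Figure D5:**
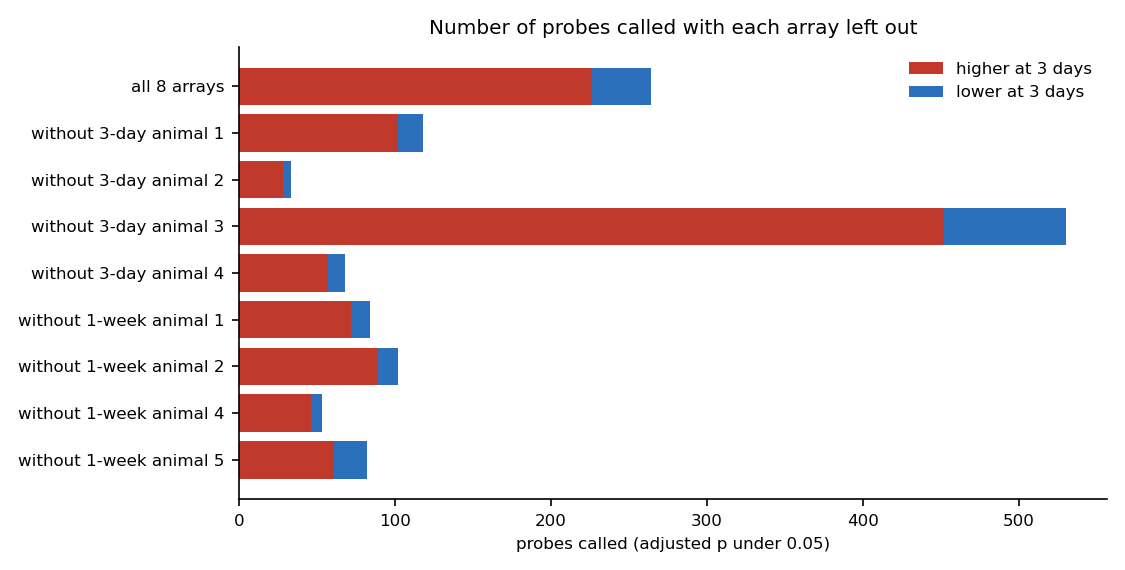
Number of probes called at an adjusted p under 0.05 (horizontal axis) with all 8 arrays and with each array left out (rows; red: higher at 3 days; blue: lower at 3 days). The count runs from 33 without 3-day animal 2 to 530 without 3-day animal 3, and increases outnumber decreases in every row.

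The number of calls depended on single animals. It was 33 without 3-day animal 2, 53 without 1-week animal 4, 68 without 3-day animal 4, 82, 84 and 102 without 1-week animals 5, 1 and 2, 118 without 3-day animal 1 and 530 without 3-day animal 3. In the run of unnamed probes after Meg3, between 1 and 37 probes were called with any array other than that of 3-day animal 3 left out. In these 8 fits, which all kept the filter made over the 8 arrays, 31 probes were called every time. They include Rrm2, Prc1, Ccnb1, Plk1 and Nuf2 of the dividing cell, Nuf2 with a 1-week mean under the limit of the filter. Fcrl2, Olfml3, Apobec1, Ms4a6bl1 and Clec4a3 of the microglia and macrophage lists, Cfp of complement and Hcst of the Fc receptor and ITAM list were also kept. So were Vim, Serpina3n and Hspb1 of the reactive astrocyte list, and Tagln, Mgp, Mt1, Pdk4 and Igfbp2. The decreases among the 31 were Apoc1, Slc6a11, Car14 and Gsta1. The probe with the smallest adjusted p of all (0.00184, a difference of 1.81) has no gene name in the annotation used here.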

How the data were processed

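RNA of laser-dissected TPS neurons was hybridized to Affymetrix Rat Gene 1.0 ST arrays. Per the labels and methods, the authors normalized the arrays with RMA (quantile) in GeneSpring GX. The deposited values are intensity on a linear scale (lowest 17 on every array, highest 7980), and their log2 was taken here. No counts exist, so precision rests on the number of arrays. Whether the lowest value of 17 comes from an added constant is unknown. Such a constant would make folds too small at low levels: with log2(value - 16) the differences of the 154 called genes were a median of 1.09 times, and at most 1.75 times, as large.

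The 4 arrays of each group were compared in R 4.3.3 by limma 3.58.1 (lmFit and eBayes, residual 6 and prior 2.93 degrees of freedom), after leaving out the lowest 15 percent of 27342 probes by mean log2 over the 8 arrays (limit 5.07, an intensity of 33.5). Adjusted p values are Benjamini-Hochberg over 23240 probes, called under 0.05. A gene was read on its probe of highest mean among probes with 1 symbol in the platform annotation. That annotation gave 1 symbol for 15097 probes, several for 323 and none for 11922. Fold values are 2 to the power of the log2 difference of means. The animals are separate, and p values measure the spread between them. The study gave no direct test of these groups, so the fit is of this comparison alone.

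The comparison, the gene lists and the rule for named genes were chosen with earlier results of these data known. The rule named the 12 largest changes in each direction, up to 4 called members of each list (or the member of smallest p) and for each cell type its 3 markers of highest intensity. Genes outside the rule were singled out after their values were seen (Kpna2, Mgp, Pdk4, Igfbp2, S100a4, Pttg1, Gpld1, Agt, Camk4, Ncan, Irf7, Ccl2, Gap43, Bdnf, Fkbp5, Mt3, Mx1, P2ry12, Tmem119 and Cx3cr1, and members named in passing). Lists are described by counts and medians, without tests. Several hold genes that the study named as most changed, so a list's common direction is not independent evidence. Replicate numbers 1, 2 and 4 occur in both groups, and deviations of same-numbered arrays had correlations of 0.12, -0.04 and -0.01, so they were not taken as pairs. Other settings were other filters, normalizations and fits, a replicate block, a Student's t-test of each probe and leaving out each array. The study used a Student's t-test only for the genes it checked by PCR, and analysis of variance for the arrays as a whole. The code of the fit was checked on simulated data, and no result here rests on that check. Promoters came from RefSeq GRCr8. Python 3.11.15, pandas 2.3.3, scipy 1.17.1 and matplotlib 3.10.9 were used.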

Additional observations from a re-analysis of the deposited data

Results flagged for a closer look

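Of 332 groups of 4 animals tested, 37 had 1 animal far from the other 3, past Dixon's limit for 4 values, and chance alone flags about 1 in 20. The log2 intensities and list means that set an animal apart follow. No explanation was tested.

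Animal 3 of the 3-day group held 13. It was the lowest of its group for Arhgdib (9.96), C1qb (8.64), C1qc (10.87), Ccnb2 (6.53), Gfap (10.95), Igfbp2 (8.54), Kpna2 (9.50), Plk1 (7.11), Tagln (9.88) and Vim (10.44). Its list means, relative to the 8 arrays, were 0.0079 for mitotic cyclins and kinases, -0.056 for kinetochore and spindle genes and -0.0075 for Fc receptors and ITAM signaling.

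Of the other 3-day animals, animal 1 stood apart for Aspa (10.14) and Enpp6 (8.09), animal 2 for Gzmb (7.51) and Npy (7.23), and animal 4 for the mean of cholesterol synthesis genes (-0.091).

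At 1 week, animal 1 stood apart for C1qb (8.55), Gzmb (7.46), Ms4a6bl1 (7.41), Mx1 (8.78) and Vcan (6.55), and for the list means of DNA replication (-0.15), of endothelium and mural cells (-0.020) and of heat shock genes (-0.024). Animal 2 did for Tspo (6.56) and voltage-gated channels (-0.017), and animal 4 for Cxcl14 (7.86), Lcn2 (5.91) and Tagln (7.40). Animal 5 did for Cyp51 (8.88), Dao (8.16), Fam107a (9.02), Fancd2 (5.83), Ncan (7.05) and Rlbp1 (7.69).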

How the results depend on the processing

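Every one of the 264 calls kept its sign wherever its probe was tested (231 of them with the lowest 50 percent left out, 261 under the filter by all 24 arrays, 154 with 1 probe for each gene). The count of calls (higher and lower at 3 days) was 118 (97 and 21) with no filter on low values and 580 (454 and 126) with all 24 arrays in the fit. It was 455 (368 and 87) with the 12 transected animals, and 0 (0 and 0) with a Student's t-test after adjustment. In that t-test 2339 probes had an unadjusted p under 0.05, against 2591 in limma. Of 925 list members tested, 69 were called in the fit of the 8 arrays, 132 with all 24 arrays, 113 with the 12 transected animals and 0 with the t-test. Over all 12994 genes 1.19% were called in the fit of the 8 arrays. With all 24 arrays 2.07% of all genes were higher and 0.777% lower, and with the 12 transected animals 1.65% and 0.516%. With the replicate block over the 6 arrays with shared numbers the count of calls was 70 (66 and 4), with 39 list members, where 0.408% of all genes were higher and 0.0231% lower. The same arrays without the block gave 220 calls, a setting added after the data were seen. The shared numbers do not pair the animals. Leaving out each array gave 33 to 530 calls, 28 to 452 higher and 5 to 78 lower, and 19 to 131 list members. Of all genes 0.169% to 2.2% were then higher and 0.0385% to 0.5% lower. Counts were 226 to 359 under a filter at 50 percent, a filter by all 24 arrays, trend and robust moderation, array weights, another quantile or loess normalization, log2(value - 16) and a minimum difference of 0.25, and 189 with 1 probe for each gene. In the run of unnamed probes after Meg3, 63 probes were called with all 8 arrays, 3 with no filter, 33 with another quantile normalization and 0 with the replicate block. The cause of these changes was not tested, apart from the fewer or more arrays or probes in the fit. The 8 arrays limit the precision and no detection limit could be derived from these intensities.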
